A study of Mus musculus with 9 samples.

Results

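The genes described here encode the glycoproteins with which platelets stick to a damaged vessel wall and to each other: Vwf, Selp, Itga2b, Itgb3, Gp1ba, Gp1bb, Gp5, Gp6, Gp9 and Cd9. They were chosen by name, as listed adhesion receptors and ligands of platelets, and all 10 were found among the 46626 named rows of the deposited table. Values are in RPKM, reads scaled by transcript length and by library depth. Testing needed 1 RPKM or more in at least 3 of the 9 libraries, which 9 of the 10 members had, among 13516 genes in all. Gp6 did not pass.

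RNA was taken from haematopoietic stem cells (HSCs), the marrow cells that give rise to every blood lineage, with about 2000 sorted cells per library. All mice were of strain C57BL/6 and carried osmotic pumps under the skin for 12 weeks, with a further pump added after 6 weeks. The 3 groups, of 3 libraries each, were saline young (mice given as 2 months old, with no statement of whether at implantation or at sampling), saline old (15 to 20 months) and BRL37344 old (15 to 20 months, given BRL37344, an agonist of the β3-adrenergic receptor, at 2.4 mg per kg per day). Separate animals behind the libraries are not stated in the labels. The p-values therefore rest on variation among libraries, some of which could be technical. The series title names the loss of adrenergic nerves as a driver of niche ageing, and the groups allow 3 questions: what differs with age, what differs with the agonist in old mice, and where agonist-treated old HSCs stand relative to young ones.

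In flowing blood, platelets are slowed when the GPIb-IX-V complex (encoded by Gp1ba, Gp1bb, Gp9 and Gp5) catches von Willebrand factor (Vwf) bound to exposed collagen. Collagen then signals through glycoprotein VI (Gp6), and the integrin αIIbβ3 (Itga2b and Itgb3) switches to a form that binds fibrinogen and von Willebrand factor and links platelets to one another. P-selectin (Selp) is moved from granules to the surface of activated platelets and endothelium and binds leukocytes, and CD9 is an abundant tetraspanin of the platelet membrane. Several of these genes are also active in HSCs: in the mouse, Vwf marks HSCs biased towards platelet production, and CD41, the product of Itga2b, is found on some HSCs.

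The sorted cells carried the label's defining markers, as all 12 HSC markers examined, among them Kit, Procr and Mecom, were at 1 RPKM or more in every library. Read from the steps of low values, 1 RPKM stood for 12.2 to 44.9 reads per kilobase of transcript in a library, so low values were the least precise in the shallow libraries. Neutrophil markers, of cells outside the sort, varied widely: the sum of 10 of them ranged from 1066 to 19147 RPKM over the saline young libraries, from 675 to 903 over the saline old and from 178 to 5432 over the BRL37344 old libraries. The highest sums were in saline young replicate 3 and BRL37344 old replicate 2, and for genes named as called, the adjusted p without these 2 libraries is given where it ended the call. Plasma cell markers were also uneven, at 1744 and 2371 RPKM in sum in saline young replicate 2 and BRL37344 old replicate 2 and at no more than 558 RPKM in the other 7 libraries. Macrophage markers summed to 69.5, 94.1 and 172 RPKM in saline young, to 39.8, 76.4 and 39.0 RPKM in saline old and to 29.3, 115 and 75.8 RPKM in BRL37344 old. The part of these in the members' change with age was not tested. Of the 14 endothelial markers listed, Cdh5, Kdr, Flt1, Lyve1, Ptprb and Sox17 were at no more than 0.258 RPKM in any library, while Egfl7 (154 to 202 RPKM), Tek (27.0 to 38.4), Emcn (17.8 to 32.5), Robo4 (13.3 to 20.6), Sox18 (7.44 to 13.6) and Tie1 (1.88 to 6.88) were above 1 RPKM in all 9. The whole list summed to between 258 and 307 RPKM. Of its 7 tested genes 1 was called with age, where 1.58% of all genes were. Cldn5, of a tight junction protein, rose by 3.37 ± 0.33 on the log2 scale (SE; limma adjusted p = 0.000643). It was also called in BRL37344 old against saline young, by 2.63 ± 0.33 (SE; limma adjusted p = 0.00478), where 0.769% of all genes were. The part of endothelial RNA in the members' values was not tested.

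Promoter windows of 300 bases, from 250 before to 50 after the annotated start, were matched for 8 of the 10 genes in the RefSeq table of GRCm38.p6; Vwf and Itgb3 had none there. Shown are Selp and Cd9, which rose in old HSCs, and Gp9 and Gp5, subunits of 1 receptor, neither of which passed the test with age. They lie at chr1:164115014-164115313 (plus strand, Selp), chr6:125494711-125495010 (minus strand, Cd9), chr6:87777820-87778119 (plus strand, Gp9) and chr16:30310732-30311031 (minus strand, Gp5). Sequences run 5′ to 3′ on the gene's strand. Capitals mark AGATAA, a form of the GATA factor motif, and GGAAG, the core letters of an ETS factor motif, on either strand. Other forms of the GATA factor motif were not counted.
Selp: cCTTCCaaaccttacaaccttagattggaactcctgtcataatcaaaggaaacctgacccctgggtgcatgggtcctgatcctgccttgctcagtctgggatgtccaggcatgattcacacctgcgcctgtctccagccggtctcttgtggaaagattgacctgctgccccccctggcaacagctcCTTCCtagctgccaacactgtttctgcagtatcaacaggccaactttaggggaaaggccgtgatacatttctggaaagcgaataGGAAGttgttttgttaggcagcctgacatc
Cd9: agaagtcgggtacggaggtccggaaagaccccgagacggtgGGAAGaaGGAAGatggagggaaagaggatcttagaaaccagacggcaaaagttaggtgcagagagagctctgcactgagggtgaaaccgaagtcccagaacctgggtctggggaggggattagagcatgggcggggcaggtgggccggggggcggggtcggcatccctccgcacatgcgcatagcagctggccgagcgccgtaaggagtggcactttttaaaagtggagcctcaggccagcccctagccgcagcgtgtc
Gp9: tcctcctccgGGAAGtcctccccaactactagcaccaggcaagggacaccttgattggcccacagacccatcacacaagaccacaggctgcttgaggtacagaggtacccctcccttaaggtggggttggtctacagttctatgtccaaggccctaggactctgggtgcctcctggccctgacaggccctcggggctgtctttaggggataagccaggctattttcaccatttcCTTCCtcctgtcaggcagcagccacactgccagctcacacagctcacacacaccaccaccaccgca
Gp5: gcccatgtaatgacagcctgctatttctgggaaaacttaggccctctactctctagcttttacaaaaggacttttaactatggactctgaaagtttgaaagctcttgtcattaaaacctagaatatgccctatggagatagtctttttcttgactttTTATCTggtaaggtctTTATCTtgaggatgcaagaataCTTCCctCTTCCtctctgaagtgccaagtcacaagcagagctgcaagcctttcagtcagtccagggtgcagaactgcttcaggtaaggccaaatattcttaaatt

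The AGATAA letters occurred in 2 of the 8 windows (2 matches in Gp5 and 1 in Gp6), against 11.2% of all 32851 windows of that length. GGAAG occurred in 8 of 8, against 71.4% of all windows. TGTGGT, of the RUNX motif, was in 1 window (Gp9) against 16.8%, CANNTG, the E-box, in 5 against 72.3%, and GGGCGG, of the SP1 motif, in 2 (Cd9 and Gp1bb) against 35.7%. No motif in this set contains another, and a match describes letters only.

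With age, the transcripts of the ligand von Willebrand factor, P-selectin, the β3 integrin chain and CD9 rose. In saline old against saline young, 4 of the 9 tested members (Selp, Itgb3, Vwf and Cd9) rose and none fell (limma, Benjamini-Hochberg adjusted p of 0.05), where 1.58% of all 13516 genes were called and 1.18% were called higher. For 7 of the 9 members every old library lay above every young one, a pattern that 9.39% of all genes tested showed (20.3% in either direction). An unadjusted p under 0.05 was found for 7 of the 9, beside 15% of all genes. The median log2 change of the 9 was 0.91, beside -0.02 over all genes tested. These libraries were made from many cells, so a larger share of cells expressing a gene and more RNA per cell cannot be told apart.

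**Figure D1:**
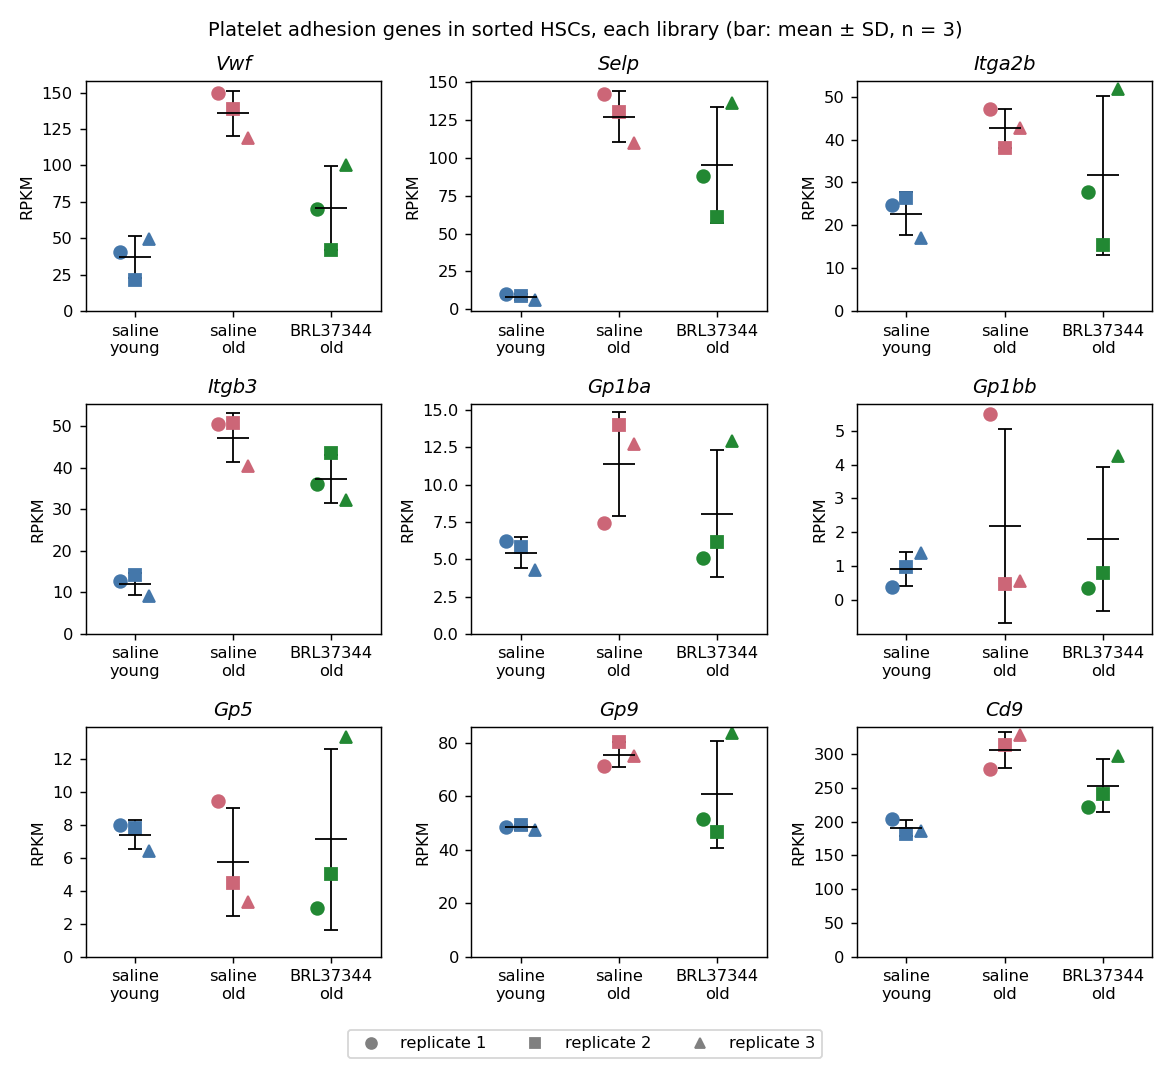
Levels in RPKM (vertical axis, linear, including 0) of the 9 tested members in each of the 3 groups; symbols are single libraries by replicate number, and the bar is the mean ± SD of 3. The young libraries span 5.83 to 9.98 RPKM for Selp and the saline old ones 109 to 142, and BRL37344 old replicate 3 is the highest of its group in all members but Itgb3.

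Vwf (chromosome 6, 125546774 to 125686679, plus strand, GRCm38) encodes the plasma and granule protein that tethers platelets. It stood at 40.4, 21.0 and 49.3 RPKM in saline young replicates 1, 2 and 3, at 150, 139 and 119 in saline old, and at 69.7, 42.1 and 100.04 in BRL37344 old. The old saline libraries were all above the young ones, and the BRL37344 libraries lay below all saline old ones, with replicate 2 inside the young range. The change from young to old was 1.94 ± 0.34 on the log2 scale (SE; limma adjusted p = 0.0211). It still passed under 14 of 19 alternative analyses and with 5 of the 9 libraries left out in turn, with adjusted p from 0.00781 to 0.0895.

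Selp (chromosome 1, 164115264 to 164150026, plus strand) encodes P-selectin. It stood at 9.98, 8.95 and 5.83 RPKM in saline young, at 142, 130 and 109 in saline old, and at 87.9, 61.1 and 136 in BRL37344 old. Neither old group overlapped the young one, the lowest BRL37344 library being at 61.1 and the highest young one at 9.98 RPKM. The change with age was 3.89 ± 0.28 (SE; limma adjusted p = 0.000153), and it passed in all 19 alternatives. Of 2 non-coding genes on the opposite strand that share exon bases with Selp, neither exceeded 1.24 RPKM in any library; how reads shared between the strands were assigned is not given in the sources used here. Selplg, whose product is the leukocyte partner of P-selectin, had means of 182 ± 15.8 RPKM in saline young and 151 ± 19.9 RPKM in saline old (SD, n = 3), a difference that missed the threshold (limma adjusted p = 0.347).

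The integrin αIIbβ3 needs both chains to reach the surface. Itgb3 (chromosome 11, 104608000 to 104670476, plus strand), the β3 chain, stood at 12.8, 14.1 and 9.01 RPKM in saline young, at 50.6, 50.8 and 40.5 in saline old, and at 36.0, 43.5 and 32.2 in BRL37344 old. Both old groups were wholly above the young one. The rise with age was 1.95 ± 0.19 on the log2 scale (SE; limma adjusted p = 0.000643) and passed in all 19 alternatives. Itga2b (chromosome 11, 102453297 to 102470122, minus strand), the αIIb chain, stood at 24.8, 26.3 and 17.1 RPKM in saline young, at 47.1, 38.1 and 42.8 in saline old, and at 27.9, 15.3 and 51.8 in BRL37344 old. The saline groups did not overlap, but the BRL37344 libraries reached both below the young and above the old range, and the change with age of 0.91 ± 0.36 did not pass (SE; limma adjusted p = 0.271). Within a library the ratio of Itga2b to Itgb3 was between 1.86 and 1.94 for the young mice, between 0.749 and 1.06 for saline old mice and between 0.351 and 1.61 under BRL37344. The αIIb transcript was thus the more abundant per length in every young library, and in saline old the ratio lay on both sides of 1.

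None of the 4 subunits of GPIb-IX-V passed the test with age by limma, although Gp9 and Gp1ba had an unadjusted p under 0.05, and differences between subunits were not tested. Gp9 (chromosome 6, 87778072 to 87779768, plus strand), the small subunit GPIX, stood at 48.6, 49.3 and 47.2 RPKM in saline young, at 71.1, 80.4 and 75.1 in saline old, and at 51.5, 46.6 and 83.7 in BRL37344 old. The saline groups were far apart for their narrow spread, yet the change of 0.64 ± 0.19 on the log2 scale missed the threshold over all genes (SE; limma adjusted p = 0.151). It passed in 3 of 19 alternatives, with adjusted p from 0.0125 to 0.392: with only the 2 saline groups in the fit, with sample quality weights, and without BRL37344 old replicate 3. Gp1ba (chromosome 11, 70639122 to 70642036, plus strand), the chain that holds the binding site for von Willebrand factor, stood at 6.24, 5.81 and 4.30 RPKM in saline young, at 7.42, 14.0 and 12.7 in saline old, and at 5.07, 6.17 and 12.9 in BRL37344 old. All saline old libraries were above the young ones, 1 of them narrowly, and the change of 0.96 ± 0.35 did not pass (SE; limma adjusted p = 0.239).

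Gp5 (chromosome 16, 30307685 to 30310779, minus strand), the subunit that thrombin cleaves, stood at 8.01, 7.78 and 6.39 RPKM in saline young, at 9.44, 4.48 and 3.29 in saline old, and at 2.97, 5.02 and 13.3 in BRL37344 old. The groups overlapped, with saline old replicate 1 and BRL37344 old replicate 3 the highest, and the change with age was -0.46 ± 0.49 on the log2 scale (SE; limma adjusted p = 0.724; 95% confidence interval -1.54 to 0.63). Relative to Gp9 in the same library, Gp5 had ratios between 0.135 and 0.165 for the young mice, between 0.0438 and 0.133 for saline old mice and between 0.0576 and 0.159 under BRL37344.

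Gp1bb (chromosome 16, 18620317 to 18622403, minus strand), which encodes the chain bound to GPIbα by a disulphide bridge, was at 0.389, 0.985 and 1.39 RPKM in saline young, at 5.48, 0.481 and 0.567 in saline old, and at 0.370, 0.811 and 4.25 in BRL37344 old. The 2 high libraries, saline old replicate 1 and BRL37344 old replicate 3, were again those highest in Gp5, and the difference between the saline groups was 0.44 ± 0.78 on the log2 scale (SE; limma adjusted p = 0.855). Gp1bb is an uncertain measurement, because 1902 of its exon bases also belong to Sept5 on the same strand in GENCODE M21, so that reads can be divided between both genes. Sept5, whose row in the table carries a name turned into a date, was under 0.001 RPKM in those 2 high libraries and in saline young replicate 1, and at 2.14, 1.29 and 1.81 RPKM in saline young replicate 3, saline old replicate 3 and BRL37344 old replicate 2. The endothelial marker Plvap, singled out here after its values were seen, was at 1.94 and 2.03 RPKM in the same 2 libraries and at no more than 0.335 RPKM in the others. The endothelial markers above 1 RPKM in every library were mixed over the BRL37344 old libraries. Tie1, Emcn and Robo4 were lowest in replicate 3, Egfl7 and Cldn5 were highest there, and Tek and Sox18 lay between. Whether Sept5 or Plvap bears on the Gp1bb and Gp5 values was not tested.

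Gp6 (chromosome 7, 4363965 to 4397744, minus strand), the collagen receptor, reached 0.313 and 0.0585 RPKM in replicates 1 and 3 of saline young and stayed under 0.002 RPKM in the other 7 libraries. A value at the table's offset of 0.0003 stands for no reads assigned, in young replicate 2, old replicates 1 and 2 and BRL37344 replicates 2 and 3, so no comparison was made. Fcer1g, the signalling chain that glycoprotein VI needs, was abundant, with means of 123 ± 35.3 RPKM in saline young and 60.3 ± 6.63 RPKM in saline old (SD, n = 3), and narrowly missed the threshold (limma adjusted p = 0.0641).

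Cd9 (chromosome 6, 125460266 to 125494791, minus strand) was the most abundant member in all 3 groups. It stood at 203, 182 and 187 RPKM in saline young, at 277, 313 and 328 in saline old, and at 222, 241 and 297 in BRL37344 old. Both old groups were wholly above the young one, and the change with age, 0.68 ± 0.12 on the log2 scale (SE; limma adjusted p = 0.0245), was the smallest among the 4 that passed. A non-coding gene on the opposite strand, Gm26728, shares 218 exon bases with Cd9 and stood at no more than 4.95 RPKM. The call of Cd9 with age was lost in 7 of 19 alternatives. These were the fits without saline young replicates 1, 2 or 3 or saline old replicates 2 or 3, and that with no filter on low values. The last was the fit leaving out the pair of libraries with the most neutrophil marker RNA (limma adjusted p = 0.174). Of the other tetraspanin genes listed, Cd63, Cd81, Cd82, Cd151, Cd37, Tspan9, Tspan32 and Tspan33 were not called in any comparison.

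**Figure D2:**
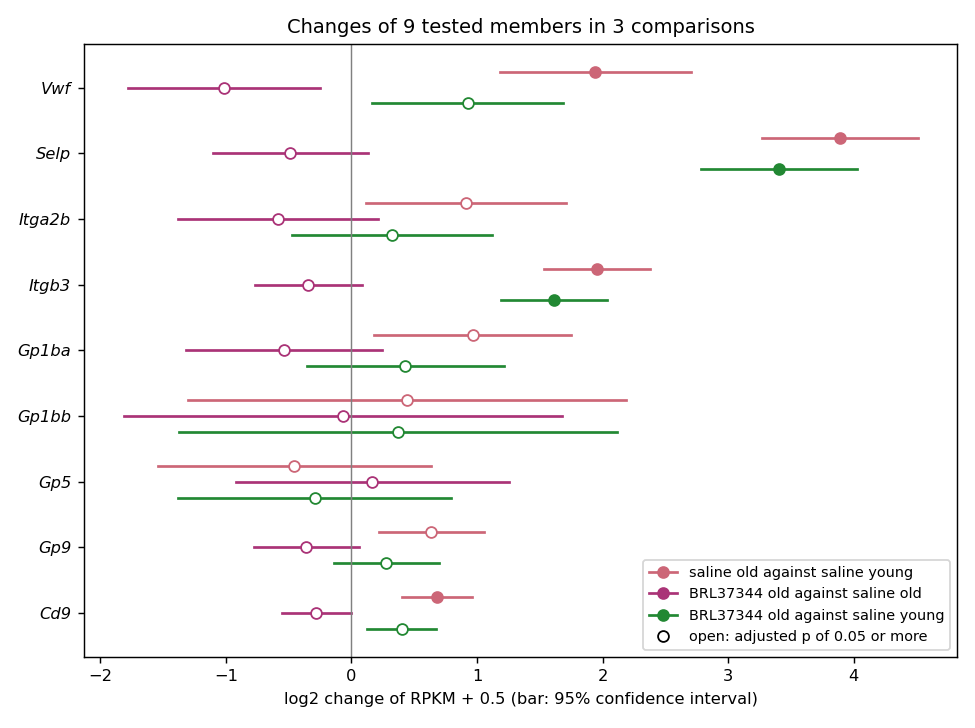
Log2 change of RPKM + 0.5 (horizontal axis) for the 9 tested members in 3 comparisons; points are limma estimates, bars 95% confidence intervals, and filled points have an adjusted p under 0.05. Selp, Itgb3, Vwf and Cd9 are filled with age, none is filled for BRL37344 old against saline old, and Selp and Itgb3 are filled for BRL37344 old against saline young.

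Markers of megakaryocytes and platelets outside the members moved in part with age. The sum of the 12 markers listed was between 694 and 1036 RPKM for the young mice, between 1271 and 1427 for saline old mice and between 1260 and 1332 under BRL37344. Of the 12, Plek, the platelet kinase C substrate pleckstrin, and Nrgn rose with age, by 1.18 ± 0.21 and 0.89 ± 0.11 on the log2 scale (SE; limma adjusted p = 0.0211 and 0.00222), and none fell, where 1.58% of all genes were called. Without the 2 libraries highest in neutrophil RNA, the adjusted p of Plek was 0.0914. The granule chemokine gene Pf4 ranged from 100.4 to 245 RPKM in the young libraries and from 148 to 433 in the old ones, while Ppbp lay between 13.7 and 16.0 RPKM in the young and between 5.99 and 9.49 in the old libraries, and Tubb1, the platelet β-tubulin, was at 2.29 to 7.34 and 2.06 to 2.39 RPKM; none of these 3 passed. The part of megakaryocyte RNA in the members' rise was not tested.

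The order of the members by level changed with age. In saline young it ran Cd9, Gp9, Vwf, Itga2b, Itgb3, Selp, Gp5, Gp1ba, Gp1bb and Gp6 on the RPKM scale, which is per length. The ranges of Gp9 and Vwf, of Vwf and Itga2b, of Itgb3 and Selp, and of Selp and Gp5 overlapped. In saline old Vwf and Selp, at means of 136 and 127 RPKM with overlapping ranges, stood next after Cd9 and both above Gp9, whose range did not reach theirs. Itgb3 and Itga2b followed with overlapping ranges, then Gp1ba, Gp5 and Gp1bb, each overlapping the next. In BRL37344 old the order was Cd9, Selp, Vwf, Gp9, Itgb3, Itga2b, Gp1ba, Gp5 and Gp1bb, and most neighbours overlapped: Selp with Vwf, Vwf with Gp9, Itgb3 with Itga2b, Gp1ba with Gp5, and Gp5 with Gp1bb. The wide range of Itga2b also reached into those of Vwf and Gp9.

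BRL37344 was then compared with saline in old mice. Of the 9 tested members none was called, as in the whole table, where the share called was 0% of 13516 genes (limma, adjusted p of 0.05); 2 members, Vwf and Cd9, had an unadjusted p under 0.05, beside 5.64% of all genes. The estimates were negative for 8 of 9 members, with a median log2 change of -0.36 beside 0.01 over all genes. Vwf differed most, by -1.02 ± 0.34 on the log2 scale (SE; limma adjusted p = 0.839; 95% confidence interval -1.78 to -0.25), and was the only member whose groups did not overlap, a pattern seen in 10.1% of all genes (5.28% lower and 4.82% higher with BRL37344). For Selp the difference was -0.49 (95% confidence interval -1.11 to 0.13), for Itgb3 -0.34 (-0.77 to 0.08), for Itga2b -0.59 (-1.38 to 0.21), for Gp1ba -0.54 (-1.32 to 0.25), for Gp9 -0.36 (-0.78 to 0.06) and for Cd9 -0.28 (-0.56 to -0.004). Missing the threshold does not show that the groups were alike.

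The BRL37344 libraries had a larger SD than either saline group in every tested member but Itgb3 and Gp1bb. Replicate 1 was below all 3 saline old libraries in 9 of 9 tested members, where 25.8% of all genes tested were, replicate 2 in 6 of 9, where 25.7% were, and replicate 3 in 2 of 9, where 26.8% were. Of the other 155 genes called higher in saline old than in saline young, 94, 102 and 63 were below the saline old libraries in replicates 1, 2 and 3; these genes were chosen with the same saline old libraries, so the counts are a description. Replicate 3 was within or above the saline old range in Selp, Itga2b, Gp1ba, Gp1bb, Gp5, Gp9 and Cd9, and below it in Vwf and Itgb3. In Gp9 and Gp1ba, replicates 1 and 2 stood at or near the young level and replicate 3 at the old one.

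**Figure D3:**
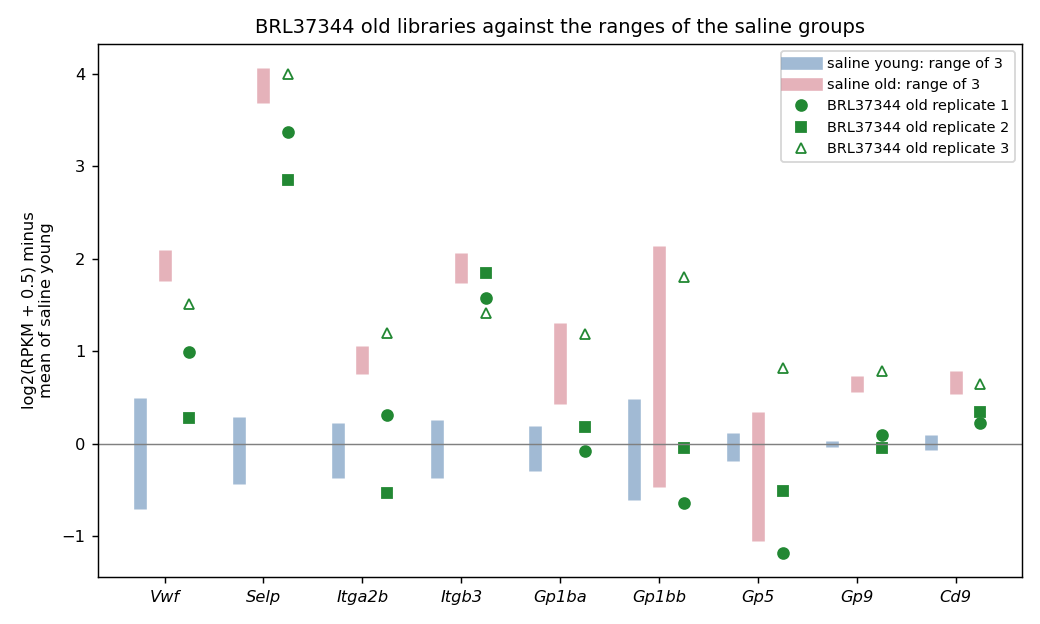
Difference of log2(RPKM + 0.5) from the saline young mean (vertical axis) for the 9 tested members; bars span the 3 libraries of each saline group and green symbols are the BRL37344 old libraries. Replicate 3 (open triangle) is the highest BRL37344 library for every member but Itgb3, and replicates 1 and 2 lie below the saline old bar for Vwf, Selp, Itga2b, Gp1ba, Gp9 and Cd9.

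Measures of the 3 BRL37344 libraries that moved beside this split were as follows. The 12 HSC markers summed to 1794, 1839 and 1338 RPKM in replicates 1, 2 and 3, beside 1400 to 1622 in saline old. Slamf1, the gene of CD150, was at 20.7, 15.9 and 33.8 RPKM, where the saline old libraries span 29.4 to 41.6 and the young ones 13.9 to 23.3, so its order over these libraries was that of Selp, Vwf and Itga2b. Neutrophil markers summed to 178, 5432 and 1838 RPKM. Depth, at 16.0, 33.5 and 44.9 reads per kilobase of transcript for 1 RPKM, rose in the order of the Cd9, Gp1ba, Gp1bb and Gp5 levels over these libraries. The part of these in the members' values was not tested.

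In contrast to the levels, the ratio of Selp to Vwf within a library set all 3 groups apart, alone among the ratios examined. It was 0.247, 0.425 and 0.118 in saline young, 0.951, 0.936 and 0.922 in saline old, and 1.26, 1.45 and 1.36 in BRL37344 old, where replicate 3 stood with the other two. A ratio within a library does not depend on how the libraries are scaled. Both Selp and Vwf were chosen with earlier results known, and 3 libraries against 3 cannot give an exact p below 0.1. No test was therefore made. The Itga2b to Itgb3 ratios overlapped between the old groups, and those of saline young lay above both. For Gp5 to Gp9, BRL37344 old overlapped both saline groups. There saline young lay narrowly above saline old, with a lowest ratio of 0.135 against a highest of 0.133. Gp1ba to Gp9 ratios overlapped between all 3 groups, spanning 0.0910 to 0.128 (saline young), 0.104 to 0.174 (saline old) and 0.0983 to 0.154 (BRL37344 old). Those of Gp1bb to Gp9 did too, at 0.00801 to 0.0295, 0.00599 to 0.0771 and 0.00718 to 0.0507. How often other gene pairs set the 3 groups apart was not computed.

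**Figure D4:**
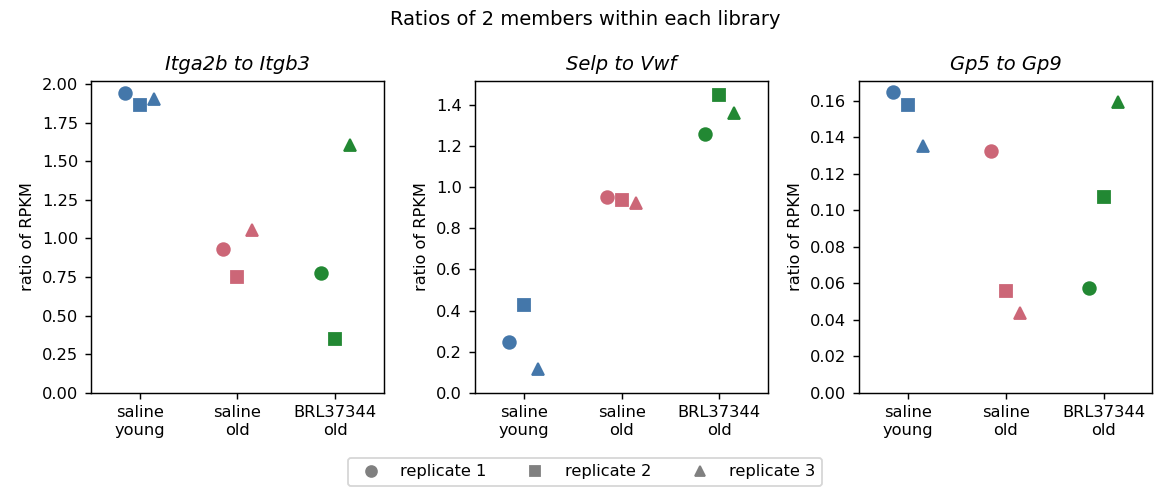
Ratio of RPKM values of 2 members within each library (vertical axis, from 0) by group; symbols are single libraries. The Selp to Vwf ratio spans 0.922 to 0.951 for saline old and 1.26 to 1.45 for BRL37344 old libraries, the Itga2b to Itgb3 ratio spreads from 0.351 to 1.61 in BRL37344 old, and the Gp5 to Gp9 ratio overlaps between the old groups.

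Old HSCs given BRL37344 were also set against saline young ones, with the same young libraries as in the comparison by age. Here 2 of 9 tested members rose, Selp by 3.40 ± 0.28 and Itgb3 by 1.61 ± 0.19 on the log2 scale (SE; limma adjusted p = 0.000514 and 0.00357), and none fell, where 0.769% of all genes were called, 0.695% higher and 0.074% lower. Both passed in all 19 alternatives. For Selp, Itgb3 and Cd9 the groups did not overlap, a pattern that 7.29% of all genes showed in the higher and 7.88% in the lower direction, and 4 of 9 members had an unadjusted p under 0.05, beside 9.38% of all genes. Vwf, with 0.93 ± 0.34 (SE; limma adjusted p = 0.403), and Cd9, with 0.40 ± 0.12 (SE; limma adjusted p = 0.279), did not pass. The estimates for Gp9, Itga2b and Gp1ba were 0.28, 0.32 and 0.43, beside 0.64, 0.91 and 0.96 in saline old against the same young libraries.

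Most other genes of the adhesion pathway did not pass the test with age. Of 67 listed genes, all in the table, 56 were tested, and 1 rose and 1 fell with age, beside the 1.58% of all genes called; the median log2 change was 0.02. None was called by limma in BRL37344 old against saline old, where 0% of all genes were. In BRL37344 old against saline young 1 rose, beside 0.769% of all genes called. An unadjusted p under 0.05 was found for 15 of the 56 with age, beside 15% of all genes. It was found for 7 in BRL37344 old against saline old, beside 5.64%, and for 13 in BRL37344 old against saline young, beside 9.38%. F2rl3, the thrombin receptor PAR4 of mouse platelets, rose with age from 69.1, 86.3 and 69.0 to 104, 116 and 117 RPKM (log2 change 0.59 ± 0.11 SE, limma adjusted p = 0.0313), and stood at 114, 107 and 111 RPKM in BRL37344 old. Both old groups were above all young libraries, but the call held in 11 of 19 alternatives, with an adjusted p of 0.210 without the 2 libraries highest in neutrophil RNA. Syk, the kinase that carries signals from glycoprotein VI and CLEC-2, fell from 29.1, 29.9 and 29.4 to 15.3, 18.1 and 21.1 RPKM (log2 change -0.69 ± 0.14 SE, limma adjusted p = 0.0428), with 22.8, 22.0 and 23.7 RPKM in BRL37344 old. The BRL37344 libraries lay between the saline groups, above every saline old one, without passing against either. The call with age held in 7 of 19 alternatives, with an adjusted p of 0.221 without those 2 libraries.

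The leukocyte tetraspanin gene Cd53 had means of 52.1 ± 11.3, 81.0 ± 12.8 and 123 ± 34.9 RPKM in saline young, saline old and BRL37344 old (SD, n = 3). It rose in BRL37344 old against saline young by 1.22 ± 0.21 on the log2 scale (SE; limma adjusted p = 0.0308), a call that held in 10 of 19 alternatives, with an adjusted p of 0.0863 without those 2 libraries. In the integrin partners and activators 0 of 12 were called in any comparison by limma, and 0 had an unadjusted p under 0.05. Of all genes, 1.58% were called with age, 0% in BRL37344 old against saline old and 0.769% in BRL37344 old against saline young. The shares of all genes with an unadjusted p under 0.05 were 15%, 5.64% and 9.38% in the same order. Those with the smallest p with age were Apbb1ip, the Rap1 effector RIAM, with 19.9 ± 1.39 and 16.0 ± 0.920 RPKM, and Rasgrp2, a Rap1 activator, with 84.9 ± 5.59 and 75.5 ± 13.1 RPKM in saline young and saline old (SD, n = 3). Itgav, which pairs with β3 in the vitronectin receptor, was at 12.0 RPKM on average in both saline groups, and the talin and kindlin genes Tln1 and Fermt3 did not pass either. In the ligands and counter-receptors 0 of 9 tested were called by limma with age and 2 had an unadjusted p under 0.05, beside 15% of all genes, which were those of fibronectin, Fn1, at 4.92 ± 3.68 and 1.03 ± 0.066 RPKM, and filamin A, Flna, at 140 ± 10.8 and 110 ± 10.5 RPKM (SD, n = 3; limma adjusted p = 0.161 and 0.211). The fibrinogen genes Fga, Fgb and Fgg did not reach the level for testing.

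**Figure D5:**
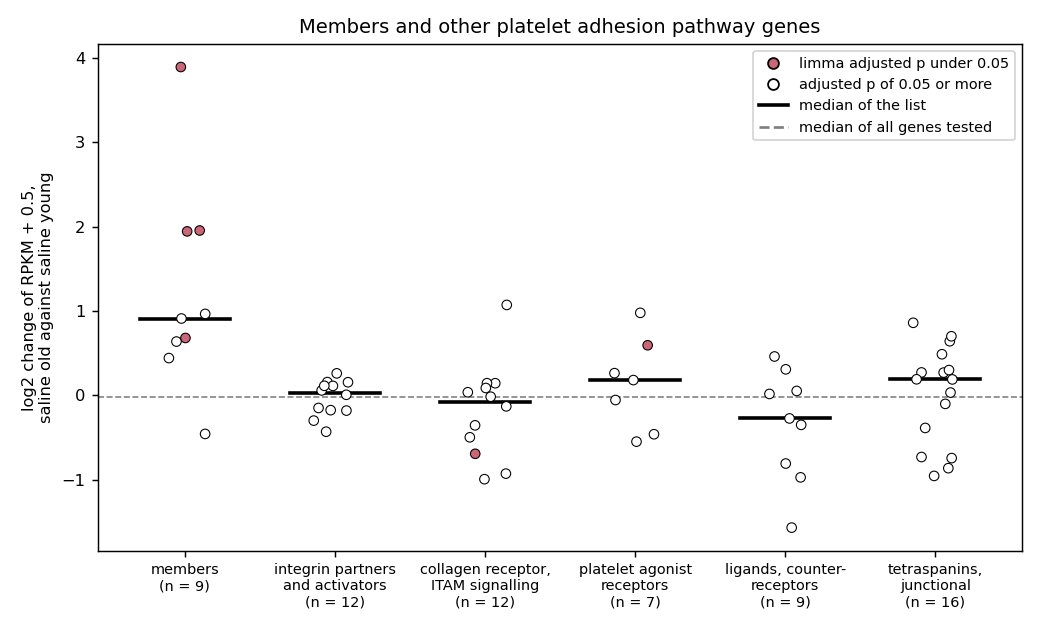
Log2 change of RPKM + 0.5 in saline old against saline young (vertical axis) for the 9 tested members and the tested genes of 5 pathway lists; each point is a gene, filled where the adjusted p is under 0.05, thick lines are list medians and the dashed line is the median of all genes. The members' median is 0.91 and those of the lists run from -0.27 to 0.19.

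The genes whose profiles over the 9 libraries came closest to those of Vwf, Selp and Itgb3 were sought among 11216 tested genes by the root mean square difference of log2 profiles, each centred on its own mean. For Vwf they were Myo1e, an unconventional myosin, Sgk1, a kinase induced by glucocorticoids, and Rhbdl2, a rhomboid protease, at 0.27, 0.32 and 0.37, where Vwf itself varied by 0.90 and the median gene differed by 0.96. For Selp they were Sbspon, Tm4sf1 and the oxysterol receptor gene Gpr183, at 0.31, 0.33 and 0.37, beside 1.76 and 1.80. For Itgb3 they were Entpd2, an enzyme that breaks down extracellular ATP, the sulphotransferase gene Sult1a1 and Fam46c, at 0.25, 0.26 and 0.28, beside 0.88 and 0.93. Sgk1, for example, had 4.54, 4.30 and 10.1 RPKM in the young libraries, 17.6, 19.0 and 16.9 in the saline old and 11.2, 8.40 and 14.4 in the BRL37344 ones, the same order of groups as Vwf. These are descriptions over 9 libraries that share their groups.

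Cd9 and Vwf, both among the 4 that rose, are neighbours on chromosome 6. They are transcribed away from each other, 52.0 kb apart, with no protein-coding gene between them in GENCODE M21. Beyond Vwf lies Ano2, listed at its offset in all 9 libraries, and then Ntf3 (neurotrophin 3), which was listed at its offset in the 3 saline young libraries and at 3.02, 1.54 and 1.53 RPKM in saline old and 0.765, 0.234 and 2.17 in BRL37344 old. Ntf3 reached 1 RPKM only in the 3 saline old libraries and BRL37344 old replicate 3, so it entered the test through the old groups. Its call with age is therefore a description. That call was marginal (limma adjusted p = 0.049994) and held in 6 of the 18 alternatives that gave a value, with an adjusted p of 0.109 without the 2 libraries highest in neutrophil RNA. On the Cd9 side, Plekhg6 stood at 2.13 ± 0.152 and 1.38 ± 0.248 RPKM in young and old and Tnfrsf1a at 83.5 ± 6.14 and 88.1 ± 4.63 (SD, n = 3), and neither passed (limma adjusted p = 0.394 and 0.809). These neighbours were looked up after the members' values were seen.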

How the data were processed

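Per the labels' protocols, RNA of sorted HSCs was amplified by SMART-Seq v4 and tagmented with a Nextera XT kit. Build mm10 (GRCm38) and the tools STAR 2.5.3a, Partek and Trim Galore are listed in the submitters' processing notes, without their roles. The deposited table holds RPKM values by the authors, although it is named as counts, and the values do not tell RPKM from FPKM: they are not whole, columns sum to 570571 to 604579, and a gene without reads sits at 0.0001 times its number of transcripts. Whether reads were counted by strand is not given in the sources used here. The 46628 rows include 2 without a gene name, which were dropped; 18 columns of values without sample names, in a second sheet, were not used.

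Library depth was inferred from the steps between low values in 5554 single-transcript genes of GENCODE M21. At transcript length less 200 bases, 87.8% to 89.8% of low values fell on whole reads, with a tolerance of 0.05. These depths are implied, and no count test was run.

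Groups came from sample titles. Columns were matched to samples by their description, and all 9 column names end in the same code, so they do not themselves show the group. Limma 3.58.1 in R 4.3.3 was fitted on log2(RPKM + 0.5), with trend and robust empirical Bayes, to 13516 genes and all 9 libraries with no covariates, and tested on simulated data. Changes are of RPKM plus this pseudocount, which understates low genes. All members, called genes of 5 pathway lists (or the 2 with the smallest p) and the 3 nearest profiles were named by rule. The members and lists were chosen with earlier results of these data known. Alternatives were scalings by TMM or equal totals, pseudocounts of 0.1 and 1, no filter or a mean of at least 2 RPKM, sample quality weights, only the 2 groups compared, a replicate block, and left-out libraries.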

Additional observations from a re-analysis of the deposited data

How the results depend on the processing

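Over 19 alternatives, Selp and Itgb3 passed in each with age and against young in BRL37344 old, and no member passed in BRL37344 old against saline old. The count of members called with age was 4, and 2 (Selp and Itgb3) with no filter on low values; with single libraries left out it ran from 2 to 5, and it was 2 without saline young replicates 1 or 2 or saline old replicates 2 or 3. It was 6 with sample quality weights, which added Gp9 and Gp1ba. Over all genes, the 213 calls with age became 140 with no filter, 1284 with quality weights, 83 without the 2 libraries highest in neutrophil markers and 96 to 591 with single libraries left out. The 0 calls for BRL37344 old against saline old became 1 with a pseudocount of 0.1, 3 with quality weights, 2 with only these groups in the fit and 0 to 38 with single libraries left out. The 104 calls for BRL37344 old against saline young became 169 with quality weights, 39 without those 2 libraries and 57 to 162 with single libraries left out. The causes were not tested.

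With quality weights Gp1bb turned sign in each comparison, to -0.28 with age, 0.28 for BRL37344 old against saline old and -0.0069 against saline young. With single libraries left out, the difference of BRL37344 old from saline old ran from -0.52 to 0.44 in Gp1bb and from -0.39 to 0.61 in Gp5, and the difference from saline young from -0.85 to 0.15 in Gp5 and from -0.11 to 0.75 in Itga2b, negative without BRL37344 old replicate 3. Gp1bb fell under the filter and gave no value in 3 of the 9 such fits, with a mean of at least 2 RPKM, with only the 2 groups compared and without the 2 libraries highest in neutrophil markers.

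The replicate numbers were not treated as pairs: deviations of same-numbered libraries had correlations from -0.05 to 0.19. The best match of a library had its own number for 2 of 6 libraries with age and 2 of 6 in BRL37344 old against saline old. In BRL37344 old against saline young this held for 4 of 6. With 3 libraries a group, this cannot settle whether the numbers pair the libraries. With the number as a block, 4, 0 and 2 members were called in the 3 comparisons and 174, 0 and 92 genes. Values under 1 RPKM rest on few reads in the shallowest libraries, which limits Gp1bb and Gp6.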
